A study of Mus musculus with 6 samples.

Results

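Gdf3, Txnip, Calhm2 and Depdc7 are 4 genes that stood among the largest increases in macrophages without liver X receptors. They were picked from the 23337 gene symbols of the count table for their level in LXR double knockout (LXRdKO) cells against wild-type (WT) cells. That comparison therefore describes how the genes were chosen and carries no test here. RNA was sequenced from macrophages that had been grown out of mouse bone marrow in 10% M-CSF for 7 days and then exposed to LPS, a bacterial cell wall component, at 100 ng/ml for 8 h. The LXRdKO group lacks both LXR genes, Nr1h3 (LXRα) and Nr1h2 (LXRβ). The Ch25hKO group lacks Ch25h, whose product makes the oxysterol 25-hydroxycholesterol, a ligand of LXR. The WT group carries neither deletion, and the strain of every sample was given as C57BL/6. Each genotype had 2 libraries, and all 6 came from LPS-stimulated cells, so no value shows the response to LPS.

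LXRα and LXRβ are nuclear receptors that bind oxysterols, pair with RXR on DNA and switch on genes of cholesterol export and fatty acid synthesis. In macrophages they are also known for holding back some inflammatory genes, and without ligand they can keep some of their own target genes silent. The 4 genes have unlike roles. Gdf3 encodes growth differentiation factor 3, a secreted ligand of the TGF-β superfamily that macrophages and fat tissue make. Txnip encodes thioredoxin-interacting protein, an α-arrestin that binds thioredoxin, lowers glucose uptake and is induced by glucose through the transcription factors MondoA and ChREBP. Calhm2 encodes a channel of the calcium homeostasis modulator family, through which cells can release ATP. Depdc7 encodes a protein with a DEP domain, a fold found in many signalling proteins, and its function is less well known.

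Total counts lay between 41650513 and 45872964 per library. Nr1h3 had 42 and 41 counts in LXRdKO and 710 and 756 in WT, or 5.64% of the WT level, and Nr1h2 had 35 and 35 counts in LXRdKO and 1292 and 1401 in WT, or 2.59%. Ch25h had 42 and 57 counts in Ch25hKO and 3120 and 3076 in WT, or 1.61% of the WT level. Ch25h in LXRdKO was at 84.9% of the WT level. Of the macrophage markers, Csf1r stood at 1060 CPM (counts scaled to library size) in LXRdKO and 862 CPM in WT and Cd68 at 746 CPM in LXRdKO and 601 CPM in WT, while Cd163 was low, at 3.59 CPM in LXRdKO, 4.28 CPM in Ch25hKO and 1.73 CPM in WT. Whether libraries of 1 genotype stem from different animals or cultures is not stated, and p-values therefore reflect a spread between libraries that could be technical alone.

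The proximal promoters of Txnip, Calhm2 and Depdc7 are shown because these 3 of the 4 genes were found in the RefSeq promoter table. Gdf3 had no entry there. That all 4 genes were higher in LXRdKO was fixed by their choice. Each sequence is the 250 bases before the RefSeq gene start (GRCm38.p6), read 5′ to 3′ on the gene's strand, and capitals mark matches to the motifs given after the sequences.
Txnip (chr3:96557707-96557956, plus strand): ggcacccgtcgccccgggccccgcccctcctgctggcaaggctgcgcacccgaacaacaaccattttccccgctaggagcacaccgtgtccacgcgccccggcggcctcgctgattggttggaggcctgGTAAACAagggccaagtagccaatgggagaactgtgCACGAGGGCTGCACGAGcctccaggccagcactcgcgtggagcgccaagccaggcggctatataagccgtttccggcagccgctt
Calhm2 (chr19:47138295-47138544, minus strand): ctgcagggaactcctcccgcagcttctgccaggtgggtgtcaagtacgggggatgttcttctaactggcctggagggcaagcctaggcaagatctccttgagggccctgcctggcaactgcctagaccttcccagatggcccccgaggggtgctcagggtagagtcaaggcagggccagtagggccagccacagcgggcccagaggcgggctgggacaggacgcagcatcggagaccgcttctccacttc
Depdc7 (chr2:104742858-104743107, minus strand): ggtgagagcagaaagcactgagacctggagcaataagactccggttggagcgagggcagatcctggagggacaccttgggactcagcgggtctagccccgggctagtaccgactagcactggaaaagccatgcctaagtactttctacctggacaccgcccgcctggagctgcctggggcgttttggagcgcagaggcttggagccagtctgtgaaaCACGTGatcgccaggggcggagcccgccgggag

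These windows were searched on both strands for 6 motifs. The Txnip window held 1 match to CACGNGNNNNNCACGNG, the paired layout of a carbohydrate response element, from 85 to 69 bases before the start. Of 32851 promoter windows of this length, 0.0457% held that layout. The Txnip window also held the forkhead motif GTAAACA, from 121 to 115 bases before the start, a motif present in 3.17% of all windows. The Depdc7 window held the E-box CACGTG from 33 to 28 bases before the start, as did 6.02% of all windows. The nuclear receptor core AGGTCA, present in 4607 of the 32851 windows, had 0 matches in the 3 windows, as had its direct repeats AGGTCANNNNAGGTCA and AGGTCANAGGTCA, held by 0.0152% and 0.0335% of windows. A window without the core cannot hold its repeats, so their absence adds nothing. Of 9181 tested genes with a window, 0 held the repeat spaced by 4. The E-box can overlap the paired layout, but the matches shown here do not overlap. The GC content was 66.8% for Txnip, 64.4% for Calhm2 and 62.0% for Depdc7, and the windows held 22, 8 and 14 CpG sites in that order.

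Genes that share these motifs were counted too. Of 8 tested genes with the layout in their window, Txnip among them, edgeR called 1 lower in LXRdKO against WT. The only gene called higher was Txnip itself, which was chosen on this comparison, so that count is no test. The median log2 fold change of the 8 genes was -0.02. Of 892 tested genes with an E-box, 14.1% were called higher in LXRdKO, beside 16.8% of all tested genes with a window. For the forkhead motif the share was 17.6% of 239 genes. A match is a description of these letters only.

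Gdf3, the TGF-β family ligand, showed the widest separation. It stood at 11.6 and 10.3 CPM in LXRdKO, at 2.95 and 3.14 CPM in Ch25hKO and at 1.46 and 1.68 CPM in WT. Both LXRdKO libraries lay above all others, both Ch25hKO libraries lay above both WT libraries, and no groups overlapped. The counts behind these values were 510 and 454 in LXRdKO, 128 and 137 in Ch25hKO, and 65 and 73 in WT, so the lowest group rests on few reads. The mean was 10.9 ± 0.956 CPM in LXRdKO, 3.05 ± 0.134 CPM in Ch25hKO and 1.57 ± 0.154 CPM in WT (SD, n = 2 each). This is a 6.96-fold higher level in LXRdKO than in WT, or 2.80 on the log2 scale, and 3.59-fold higher than in Ch25hKO. Gdf3 (ENSMUSG00000030117.5) lies on chromosome 6, 122605403 to 122610087, minus strand (GRCm38).

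Txnip, the thioredoxin-binding α-arrestin, was by far the most abundant of the 4. It stood at 188 and 177 CPM in LXRdKO, at 79.0 and 81.8 CPM in Ch25hKO and at 64.8 and 59.5 CPM in WT. The order of genotypes was the same as for Gdf3, again without overlap. The mean was 183 ± 8.01 CPM in LXRdKO, 80.4 ± 2.02 CPM in Ch25hKO and 62.1 ± 3.74 CPM in WT (SD, n = 2 each), which is 2.94-fold higher in LXRdKO than in WT. Between single libraries, the ratio of LXRdKO to WT ran from 2.74 to 3.17. Txnip (ENSMUSG00000038393.14) lies on chromosome 3, 96557957 to 96561883, plus strand. An annotated antisense transcript, Gm15441, covers it. Without a known strand setting, reads of the pair cannot be told apart. Gm15441 had 16 and 14 counts in LXRdKO and 15 and 16 in WT, beside 8271 and 7831 counts of Txnip in LXRdKO.

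Calhm2, the channel gene, stood at 10.6 and 9.12 CPM in LXRdKO, at 4.43 and 4.11 CPM in Ch25hKO and at 3.24 and 3.09 CPM in WT. LXRdKO was highest and WT lowest, with no overlap between groups, as for Gdf3 and Txnip. The mean was 9.87 ± 1.06 CPM in LXRdKO, 4.27 ± 0.228 CPM in Ch25hKO and 3.16 ± 0.110 CPM in WT (SD, n = 2 each), or 3.12-fold higher in LXRdKO than in WT. Calhm2 (ENSMUSG00000033033.10) lies on chromosome 19, 47105353 to 47138294, minus strand, where it overlaps Pdcd11 on the opposite strand over 26.5 kb, so its counts may include or lose reads of that gene. Pdcd11 had 502 and 483 counts in LXRdKO, 605 and 494 in Ch25hKO and 459 and 392 in WT. It did not pass the test in LXRdKO against WT (log2 fold change 0.21, edgeR adjusted p = 0.144) and rose in Ch25hKO against WT (0.38, edgeR adjusted p = 0.00659), so it moved with Calhm2 in Ch25hKO. The part of this overlap in the Calhm2 values was not tested.

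Depdc7, the DEP domain gene, had another order. It stood at 12.6 and 12.8 CPM in LXRdKO, at 3.60 and 3.67 CPM in Ch25hKO and at 4.86 and 4.12 CPM in WT. LXRdKO was again highest, but here Ch25hKO lay below both WT libraries. How many of all tested genes lay below in this way was not counted. In Ch25hKO against WT, 19.5% of tested genes were called lower, and Depdc7 was not (edgeR adjusted p = 0.0570). The mean was 12.7 ± 0.0948 CPM in LXRdKO, 3.63 ± 0.0507 CPM in Ch25hKO and 4.49 ± 0.524 CPM in WT (SD, n = 2 each). The level in LXRdKO was 2.83-fold that in WT and 3.50-fold that in Ch25hKO. WT replicate 1 was the higher of the WT libraries, and the ratio of single LXRdKO to WT libraries ran from 2.60 to 3.10. Depdc7 (ENSMUSG00000027173.7) lies on chromosome 2, 104721784 to 104742878, minus strand.

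**Figure D1:**
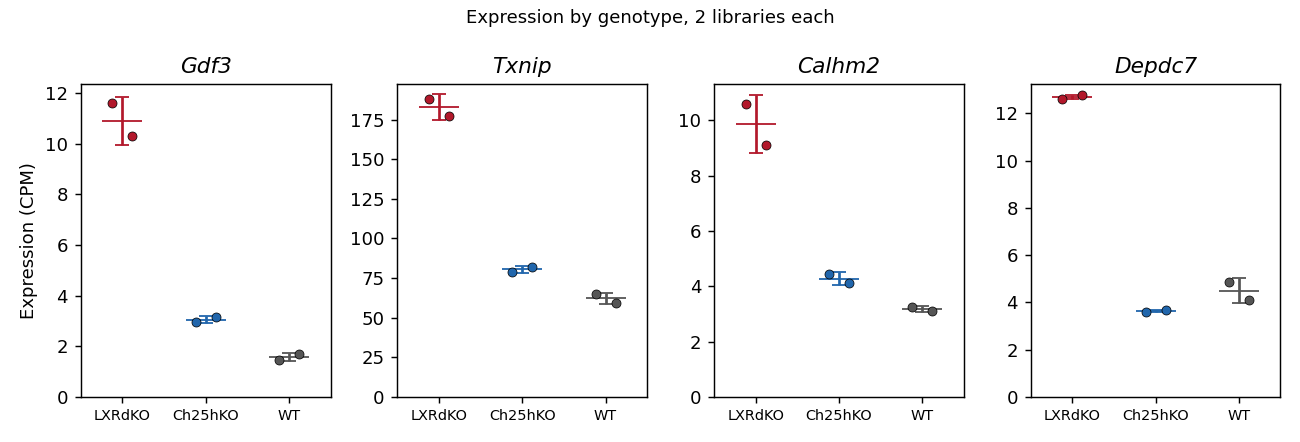
Expression in CPM (y axis, from 0, a separate scale for each gene) of Gdf3, Txnip, Calhm2 and Depdc7 in LXRdKO, Ch25hKO and WT macrophages. Points are the 2 libraries of each genotype, horizontal lines the mean and bars the SD. LXRdKO lies above the other genotypes in each panel, and Ch25hKO lies above WT in all panels but that of Depdc7, where it is at 3.63 CPM against 4.49 CPM in WT.

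All 4 genes were thus higher in both LXRdKO libraries than in both WT libraries, which the choice of genes fixed and which held for 32.9% of the 12923 tested genes. Among 7630 tested genes with a mean of at least 5 CPM and an established symbol, they ranked 4 (Gdf3), 5 (Calhm2), 8 (Txnip) and 10 (Depdc7) by log2 fold change of LXRdKO over WT. Over all 12923 tested genes the ranks were 11 (Gdf3), 30 (Calhm2), 34 (Txnip) and 40 (Depdc7). Gdf3, Calhm2 and Depdc7 averaged under 5 CPM in Ch25hKO and in WT, and reached that mean only through LXRdKO. Mid1, a ubiquitin ligase gene, stood just above Gdf3 with a log2 fold change of 3.78. Pilrb2 and Apoc2 stood at 1.56 between Calhm2 (1.64) and Txnip (1.56), and Napsa stood at 1.53 between Txnip and Depdc7 (1.50). Clec4a2, the next gene below Depdc7, was at 1.39. Counts of Mid1, Pilrb2 and Clec4a2 are uncertain, since reads may be shared with a near-identical copy, another family member or an overlapping transcript.

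Per kilobase of annotated exon, Txnip was also the most abundant in each genotype, at 58.5 CPM per kb in LXRdKO, 25.7 in Ch25hKO and 19.9 in WT. Its level per kilobase was above that of 94.2% of 12761 tested genes in LXRdKO and 85.4% in WT. Depdc7 followed at 6.07 CPM per kb in LXRdKO, 1.73 in Ch25hKO and 2.14 in WT. Gdf3 came next in LXRdKO and Ch25hKO, at 4.52 and 1.26 CPM per kb, and was at 0.649 in WT. Calhm2 was at 2.26 CPM per kb in LXRdKO, 0.978 in Ch25hKO and 0.725 in WT. On this scale Gdf3 was below Calhm2 in WT and above it in both knockouts. The percentile of Gdf3 among all tested genes was 60.0 in LXRdKO, 36.1 in Ch25hKO and 26.6 in WT, the widest shift of the 4.

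The rule that chose the genes did not use the loss of Ch25h, so that comparison can be tested. It shares the WT libraries with the comparison that was used. A choice on a large increase over WT favours low WT values, which would tend to raise Ch25hKO over WT too. Earlier results of these data were also known at the choice, so the test is not independent of it. Of the 4 genes, 3 rose in Ch25hKO against WT, where 19.8% of all tested genes were called higher and 35.6% had both Ch25hKO libraries above both WT libraries. Gdf3 rose 1.94-fold, with a log2 fold change of 0.95 ± 0.16 (SE, 95% interval 0.62 to 1.29, edgeR adjusted p = 0.000116, higher in 2 of 2 libraries). Txnip rose 1.29-fold, by 0.37 ± 0.06 on the log2 scale (0.25 to 0.49, edgeR adjusted p = 5.81e-05, higher in 2 of 2 libraries). Calhm2 rose 1.35-fold, by 0.43 ± 0.13 (0.15 to 0.71, edgeR adjusted p = 0.0157, higher in 2 of 2 libraries). The call of Calhm2 was lost without WT replicate 2 (0.38, edgeR adjusted p = 0.0596), without Ch25hKO replicate 1 (0.37, edgeR adjusted p = 0.128) and with DESeq2 (0.42, adjusted p = 0.0675), within an adjusted p of 0.00557 to 0.128 over 15 alternatives.

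Depdc7 did not pass in Ch25hKO, with a log2 fold change of -0.31 ± 0.12 (SE, 95% interval -0.57 to -0.05, edgeR adjusted p = 0.0570) and a Ch25hKO level at 80.9% of WT. It lay close to the threshold: the adjusted p was 0.0149 without WT replicate 2, where the log2 fold change was -0.44, and ran from 0.0149 to 0.375 over the 15 alternatives. A single comparison of 2 libraries with 2 by exact permutation cannot go below a two-sided p of 0.333, so these calls rest on the spread estimated over all genes.

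Set beside each other, the increase of Ch25hKO over WT in CPM was a similar fraction of the increase of LXRdKO over WT for the 3 genes that rose. It was 15.7% for Gdf3 (1.48 of 9.37 CPM), 15.2% for Txnip (18.3 of 121 CPM) and 16.5% for Calhm2 (1.10 of 6.70 CPM). For Depdc7 the difference from WT was -0.857 CPM in Ch25hKO and 8.22 CPM in LXRdKO. Both differences use the same WT libraries, so these fractions are a description. On the log2 scale, Gdf3 rose by 0.95 in Ch25hKO and 2.80 in LXRdKO. Txnip rose by 0.37 and 1.56 and Calhm2 by 0.43 and 1.64 in that order. There the fraction was larger for Gdf3 than for Txnip and Calhm2, so the likeness belongs to the CPM scale. Against Ch25hKO instead of WT, the log2 fold change of LXRdKO was 1.84 for Gdf3, 1.18 for Txnip, 1.21 for Calhm2 and 1.81 for Depdc7, with no test because the LXRdKO libraries chose the genes.

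Profiles over the 6 libraries were compared as log2 CPM relative to each gene's own WT mean, and likeness was the root-mean-square difference. Txnip and Calhm2 were each other's closest gene of 7630, at 0.08 on the log2 scale. The LXRdKO values on which the 4 genes were chosen enter these distances, so nearness among them is no test. Calhm2 was among the 7630 only through its level in LXRdKO. Next for both came Apoc2, which encodes a cofactor of lipoprotein lipase, at 0.13 from Txnip and 0.15 from Calhm2, and then the lectin gene Clec4a2 at 0.17 and 0.19. Apoc2 stood at 48.1 and 51.2 CPM in LXRdKO, 23.2 and 26.2 CPM in Ch25hKO and 16.7 and 17.0 CPM in WT.

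Depdc7 was nearest to Napsa, the gene of the aspartic protease napsin A, at 0.09. Napsa stood at 47.8 and 49.7 CPM in LXRdKO, 14.1 and 14.2 CPM in Ch25hKO and 16.6 and 17.2 CPM in WT, so it too was highest in LXRdKO and lowest in Ch25hKO. The orphan receptor gene Gpr141 (0.14) and Fcgrt, the gene of the neonatal Fc receptor (0.15), followed. Among the 7630 genes searched, Gdf3 had no gene as near. Its closest were Mid1 at 0.62, Pilrb2 at 0.70 and Calhm2 at 0.73. By increase in LXRdKO, Gdf3 and Calhm2 ranked 4 and 5 there, but 11 and 30 over all tested genes. Tested genes ranked between them were thus not searched. Gdf3 too was among the 7630 only through its level in LXRdKO. Among the 4 genes, Depdc7 was 0.39 from Txnip, 0.43 from Calhm2 and 1.03 from Gdf3. These distances are descriptions over 6 libraries of 3 genotypes.

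**Figure D2:**
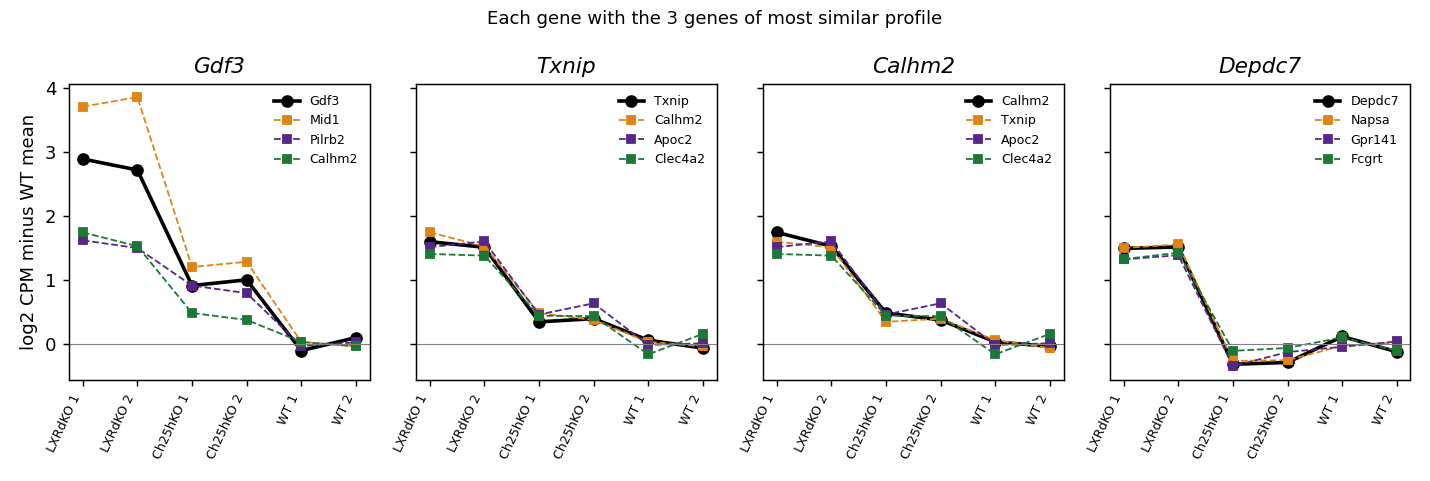
Log2 CPM relative to the WT mean (y axis) in the 2 LXRdKO, 2 Ch25hKO and 2 WT libraries (x axis) for each of the 4 genes (black) and the 3 genes with the smallest root-mean-square difference (coloured). Only the 7630 genes with a mean of at least 5 CPM and an established symbol were searched. The Txnip and Calhm2 lines nearly coincide, Depdc7 and Napsa dip below 0 in Ch25hKO, and the lines around Gdf3 lie farther apart.

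Genes related to each of the 4 were read from lists, without the 4 genes themselves. In LXRdKO against WT, 16.4% of tested genes were called higher and 15.5% lower, and the median log2 fold change of all was 0.003. In Ch25hKO against WT, 19.8% were called higher and 19.5% lower, with a median of 0.006. Adjusted p-values are from edgeR's quasi-likelihood test over 12923 genes, and errors of log2 fold changes are SE.

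Among other ligands of the TGF-β superfamily, 2 fell in LXRdKO and none of those tested rose. Of 32 listed, 7 were tested, and in LXRdKO edgeR called 0 higher and 2 lower (median -0.18). With edgeR at an unadjusted p under 0.05, with DESeq2 and with limma-voom, 0 were higher as well. Inhba, the activin A subunit gene, fell to 26.9 ± 2.65 CPM in LXRdKO, against 72.6 ± 7.29 CPM in WT (SD, n = 2 each), with a log2 fold change of -1.43 ± 0.08 (edgeR adjusted p = 1.12e-08). Gdf15, a stress-induced ligand, had 212 and 266 counts in LXRdKO and 564 and 600 in WT, a log2 fold change of -1.29 ± 0.11 (edgeR adjusted p = 7.7e-08). In Ch25hKO edgeR called 0 higher (1 without WT replicate 2, with a replicate block, with no low-count filter or at an unadjusted p under 0.05, and 0 with DESeq2 or limma-voom) and 2 lower (median -0.19), Inhba at -0.73 ± 0.08 and Tgfb3 at -1.86 ± 0.29. Gdf1, a ligand closely related to Gdf3, had 0 counts in every library.

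Of 19 tested receptors and SMADs, which pass the signal to the nucleus, 6 were higher and 2 lower in LXRdKO (median 0.13). The TGF-β receptor gene Tgfbr2 rose 1.40-fold and the inhibitory Smad6 1.47-fold, while the inhibitory Smad7 fell by 0.80 ± 0.13 on the log2 scale. Tdgf1, which encodes Cripto, a co-receptor known to act with Gdf3-like ligands, had 77 and 77 counts in LXRdKO and 43 and 56 in WT (log2 fold change 0.63, edgeR adjusted p = 0.0497). The call of Tdgf1 was lost in 8 alternatives, among them DESeq2, limma-voom and the omission of WT replicate 1, Ch25hKO replicate 1 or either LXRdKO library. Acvr1c, the gene of the receptor ALK7, which Gdf3 is known to use in fat cells, had 1 and 2 counts in LXRdKO, 0 and 0 in Ch25hKO and 3 and 0 in WT. The number higher came to 3 without WT replicate 1 or with DESeq2 and 2 without LXRdKO replicate 2, and the number lower to 1 with DESeq2 or without either LXRdKO library. In Ch25hKO 5 were higher and 3 lower (median 0.11), with Acvr1b, the gene of the activin receptor ALK4, at 0.45 ± 0.05. Those higher came to 3 with DESeq2 or without WT replicate 1 or either Ch25hKO library, and those lower to 1 without Ch25hKO replicate 1.

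Of 14 tested inhibitors and target genes of the same pathway, 4 were higher and 5 lower in LXRdKO (median 0.14). Fst, the gene of the activin antagonist follistatin, was at 1.82 ± 0.183 CPM in LXRdKO and 5.89 ± 0.936 CPM in WT (SD, n = 2 each), a log2 fold change of -1.70 ± 0.15. Among the Id genes, targets of BMP signals, Id1 (-0.71 ± 0.08) and Id2 (-0.34 ± 0.07) fell and Id3 rose (0.34 ± 0.07). In Ch25hKO 2 were higher, or 1 with DESeq2 or without Ch25hKO replicate 1, and 5 lower (median -0.01), among them Id1, Id2 and Id3 at -0.91 ± 0.09, -0.64 ± 0.07 and -0.61 ± 0.07.

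Around Txnip, the other 4 α-arrestins that were tested rose in LXRdKO, by 0.32 to 0.52 on the log2 scale. All but Arrdc4 were called higher in Ch25hKO as well. Arrdc4, the closest α-arrestin to Txnip and like it a MondoA target, stood at 45.2 and 47.6 CPM in LXRdKO, 34.9 and 32.8 CPM in Ch25hKO and 36.1 and 32.4 CPM in WT. Its log2 fold change was 0.44 ± 0.06 in LXRdKO (edgeR adjusted p = 4.8e-05) and -0.02 ± 0.07 in Ch25hKO (edgeR adjusted p = 0.853). Arrdc3 rose by 0.52 ± 0.09 in LXRdKO and 0.87 ± 0.09 in Ch25hKO. Arrdc1 (0.32) and Arrdc2 (0.50) also rose in LXRdKO, where the call of Arrdc1 was lost without LXRdKO replicate 2. In Ch25hKO, Arrdc1 rose by 0.27 ± 0.08 (edgeR adjusted p = 0.00981) and Arrdc2 by 0.39 ± 0.12 (edgeR adjusted p = 0.0173). Arrdc5 had 1 and 0 counts in LXRdKO. Of 15 tested genes of the α-arrestin and glucose sensing list, 7 were higher and 3 lower in LXRdKO (median 0.17). The glucose transporter gene Slc2a1 was at 0.11 ± 0.05 (edgeR adjusted p = 0.136), and the hexose transporter gene Slc2a6 rose by 0.43 ± 0.05. In Ch25hKO 8 were higher and 1 lower (median 0.18), with Hk2, the inducible hexokinase gene, at 0.41 ± 0.05. The number lower in LXRdKO came to 1 without WT replicate 1, LXRdKO replicate 1 or the Ch25hKO group and 0 without LXRdKO replicate 2. In Ch25hKO the number higher came to 2 and 3 without replicates 1 and 2 of that group and 5 with DESeq2, and the number lower to 3 without WT replicate 2 and 2 with upper-quartile scaling.

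Txn1, the thioredoxin gene whose protein Txnip binds, rose with Txnip in LXRdKO. It stood at 1640 and 1710 CPM in LXRdKO, 1240 and 1330 CPM in Ch25hKO and 1200 and 1200 CPM in WT. The log2 fold change was 0.48 ± 0.06 in LXRdKO (edgeR adjusted p = 4.38e-06) and 0.10 ± 0.06 in Ch25hKO (edgeR adjusted p = 0.176). The glutaredoxin gene Glrx rose by 0.30 ± 0.06 in LXRdKO, while Txnrd1, the thioredoxin reductase gene, fell by 0.30 ± 0.06 and the sulfiredoxin gene Srxn1 by 0.26 ± 0.05. Of 15 tested genes of the system, 3 were higher and 5 lower in LXRdKO (median 0.07), and 3 and 5 in Ch25hKO (median 0.02). The number lower in LXRdKO came to 2 and 3 without its replicates 1 and 2. In Ch25hKO the number lower came to 1 without Ch25hKO replicate 1 and 3 without either or both LXRdKO libraries, and the number higher to 1 without Ch25hKO replicate 2.

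Of the Calhm2 family, Fam26f was the other member with more than a few reads. It stood at 128 and 139 CPM in LXRdKO, 74.5 and 80.1 CPM in Ch25hKO and 122 and 113 CPM in WT, so it was lowest in Ch25hKO, where its log2 fold change was -0.61 ± 0.06, and at 0.18 ± 0.06 in LXRdKO (edgeR adjusted p = 0.0252). Calhm1 had 1 and 0 counts in LXRdKO, 1 and 1 in Ch25hKO and 0 and 0 in WT. Fam26e had 5 and 5 counts in LXRdKO and 12 and 7 in WT.

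Genes of ATP release, ATP receptors and ATP breakdown moved in both directions. Of 21 tested with Fam26f, 9 were higher and 3 lower in LXRdKO (median 0.08), and 5 were higher and 8 lower in Ch25hKO (median -0.08). The nucleotide receptor gene P2ry14 stood at 67.2 ± 0.423 CPM in LXRdKO, 25.2 ± 0.209 CPM in Ch25hKO and 36.3 ± 0.211 CPM in WT (SD, n = 2 each). It rose by 0.89 ± 0.05 on the log2 scale in LXRdKO and fell by 0.53 ± 0.06 in Ch25hKO. Its relative P2ry13 likewise rose by 0.82 ± 0.07 in LXRdKO and fell by 0.44 ± 0.08 in Ch25hKO. Entpd1, which encodes the ATP-hydrolysing ectoenzyme CD39, was at 0.68 ± 0.06 in LXRdKO and -0.60 ± 0.06 in Ch25hKO. The ATP-gated channel gene P2rx7 fell in both, by 0.49 ± 0.06 in LXRdKO and 0.59 ± 0.06 in Ch25hKO. The gap junction gene Gja1 was at -0.74 ± 0.08 in LXRdKO and 0.55 ± 0.08 in Ch25hKO.

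Other DEP domain genes were counted beside Depdc7. Of 15 tested, 1 was higher and 4 lower in LXRdKO (median -0.08), and 2 were higher and 3 lower in Ch25hKO (median 0.01). Depdc5, a subunit gene of the GATOR1 complex that restrains mTORC1, was at -0.33 ± 0.09 in LXRdKO (edgeR adjusted p = 0.0123). Plek, the pleckstrin gene, fell to 2040 ± 33.8 CPM in LXRdKO, against 2770 ± 287 CPM in WT (SD, n = 2 each), and Rapgef5, a Rap exchange factor gene, fell by 0.73 ± 0.07. Depdc1a had 2 and 1 counts in LXRdKO and 0 and 2 in WT. The higher gene in LXRdKO was Prex1, and the count came to 0 without Ch25hKO replicate 1, the whole Ch25hKO group or either LXRdKO library and 2 without WT replicate 2. In Ch25hKO the number higher came to 0 with DESeq2 or without Ch25hKO replicate 1 and 1 without Ch25hKO replicate 2 or either WT library, and the number lower to 1 without WT replicate 2.

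In human cells, DEPDC7 has been linked to the CARMA, BCL10 and MALT1 proteins that activate NF-κB. Of 9 tested genes of that pathway, 1 was higher and 3 lower in LXRdKO (median -0.05), with the NF-κB inhibitor genes Tnfaip3 at -0.51 ± 0.07 and Nfkbia at -0.19 ± 0.05. In Ch25hKO 4 were higher and 1 lower (median 0.20), with the protease gene Malt1 at 0.39 ± 0.05. The number higher in LXRdKO came to 0 without LXRdKO replicate 2 and 2 without WT replicate 1, and the number lower to 1 without either LXRdKO library. In Ch25hKO the number higher came to 2 without Ch25hKO replicate 2 and the number lower to 2 without WT replicate 2.

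Targets of nuclear receptors were read for comparison. Gdf3 is known in mouse macrophages as a target of PPARγ, which also pairs with RXR. Of 14 tested PPARγ and RXR genes, 3 were higher and 5 lower in LXRdKO (median -0.08), or 3 lower without LXRdKO replicate 1, and 3 were higher and 5 lower in Ch25hKO (median -0.03). Pparg itself was at 0.53 in LXRdKO (edgeR adjusted p = 0.0338; omitting WT replicate 2 or either LXRdKO library, or testing with DESeq2, raised the adjusted p above 0.05), the scavenger receptor gene Cd36 at -0.60 ± 0.05 and the transglutaminase gene Tgm2 at 0.25 ± 0.05. The fatty acid carrier gene Fabp5 rose in both, by 0.25 ± 0.06 in LXRdKO and 0.62 ± 0.05 in Ch25hKO. Of 22 tested genes on a list of LXR targets, which holds the deleted Nr1h3, 5 were higher and 11 lower in LXRdKO (median -0.19), and 8 were higher and 7 lower in Ch25hKO (median -0.07). Mylip, a ubiquitin ligase gene, fell by 1.85 ± 0.06 in LXRdKO and 1.41 ± 0.06 in Ch25hKO, and Abcg1, a cholesterol exporter gene, by 0.91 ± 0.06 and 2.60 ± 0.07. Genes of fatty acid synthesis moved otherwise: the desaturase gene Scd2 was at -2.19 ± 0.08 in LXRdKO and 1.56 ± 0.07 in Ch25hKO. Fasn, the fatty acid synthase gene, was at -0.09 ± 0.11 in LXRdKO (edgeR adjusted p = 0.558) and 3.12 ± 0.08 in Ch25hKO. Apoc2, the gene near Txnip and Calhm2 in profile, was on the side of those that rose, with Apoe (1.15), Pltp (0.76), Mertk (0.65) and Npc2 (0.17).

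**Figure D3:**
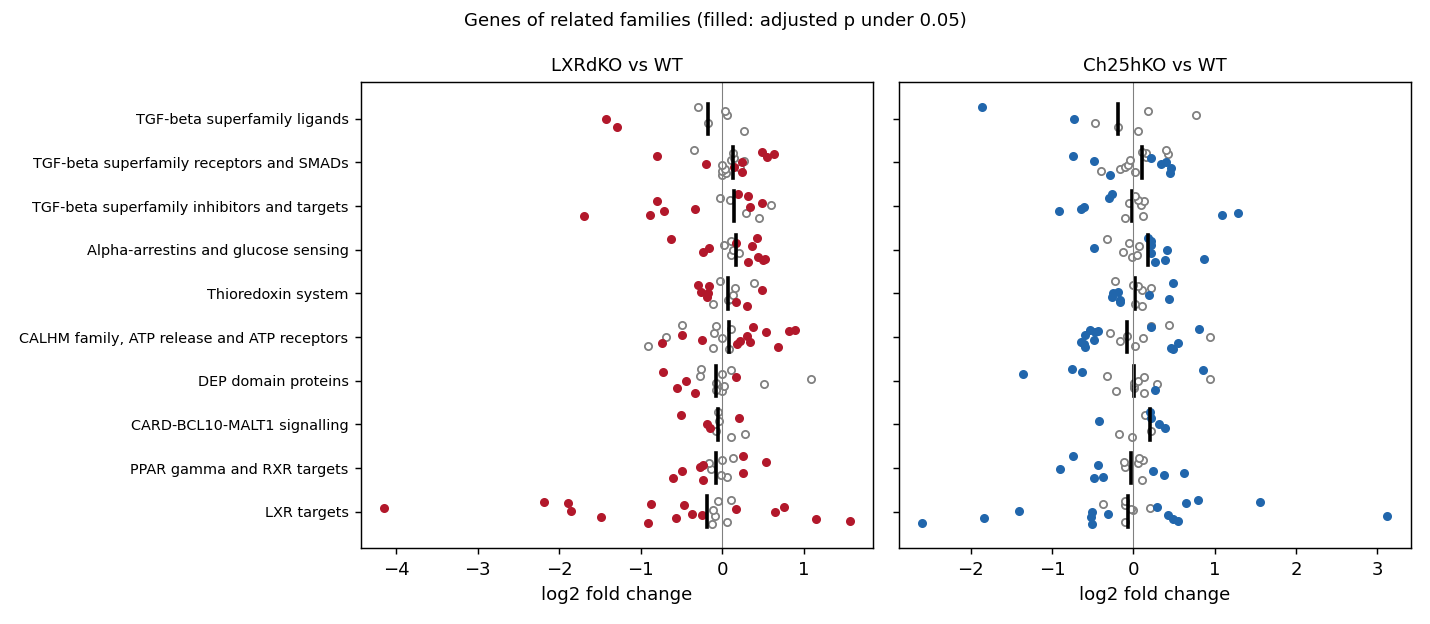
Log2 fold change (x axis) of each tested gene of 10 lists (rows), in LXRdKO against WT (left) and Ch25hKO against WT (right). Filled points had an edgeR adjusted p under 0.05, open points did not, and the black bar is the median of a list. The medians lie between -0.19 and 0.20, and single genes such as Inhba and Fst lie well below 0 in LXRdKO.

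Genes near each of the 4 were read as well, beside 16.4% of all tested genes called higher and 15.5% lower in LXRdKO. In Ch25hKO the shares of all tested genes were 19.8% and 19.5%. Within 500 kb of Gdf3, 13 other genes were tested, and in LXRdKO 4 were higher and 2 lower, with a median of 0.06 and a largest log2 fold change of 1.04. Those with the lowest p were the lectin genes Clec4a1 (1.04 ± 0.05, 320 kb away) and Clec4a3 (0.67 ± 0.05, 353 kb away), which belong to a family of similar copies, and C3ar1, the gene of the receptor for complement C3a, at 0.52 ± 0.06. Around Txnip, 27 genes were tested, 3 were higher and 4 lower, the median was 0.00 and the largest value 0.64. The lowest p there belonged to the deubiquitinase gene Otud7b (-0.51 ± 0.07), the histone gene Hist2h2be (-0.66 ± 0.12) and the ubiquitin ligase gene Rnf115 (0.23 ± 0.05).

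Around Calhm2, 13 genes were tested, 3 were higher and 1 lower, with a median of 0.13 and a largest value of 0.48. Usmg5, whose product belongs to the mitochondrial ATP synthase, lay 34.8 kb away and was at 0.24 ± 0.07, and 2010012O05Rik and Slk were at 0.33 ± 0.09 and -0.16 ± 0.06. Around Depdc7, 7 genes were tested, 2 were higher and 2 lower, with a median of -0.06. Tcp11l1, 47.6 kb away, stood at 30.4 CPM in LXRdKO and 16.4 CPM in WT, a log2 fold change of 0.89 ± 0.07 (edgeR adjusted p = 5.35e-08). Prrg4 (-0.54 ± 0.10) and the translation factor gene Eif3m (-0.31 ± 0.06) fell. In Ch25hKO against WT, 2 of the 13 neighbours of Gdf3 were higher and 7 lower (median -0.33), and of the 27 around Txnip edgeR called 0 higher and 5 lower (median -0.15), with 2 higher at an unadjusted p under 0.05 and 0 with DESeq2 or limma-voom. Those around Calhm2 were 3 higher and 3 lower (median 0.13), and those around Depdc7 1 higher and 1 lower (median -0.11). Depdc7 lies 13.5 Mb from the deleted Nr1h3 on chromosome 2, and Calhm2 lies 12.6 Mb from Ch25h on chromosome 19.

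**Figure D4:**
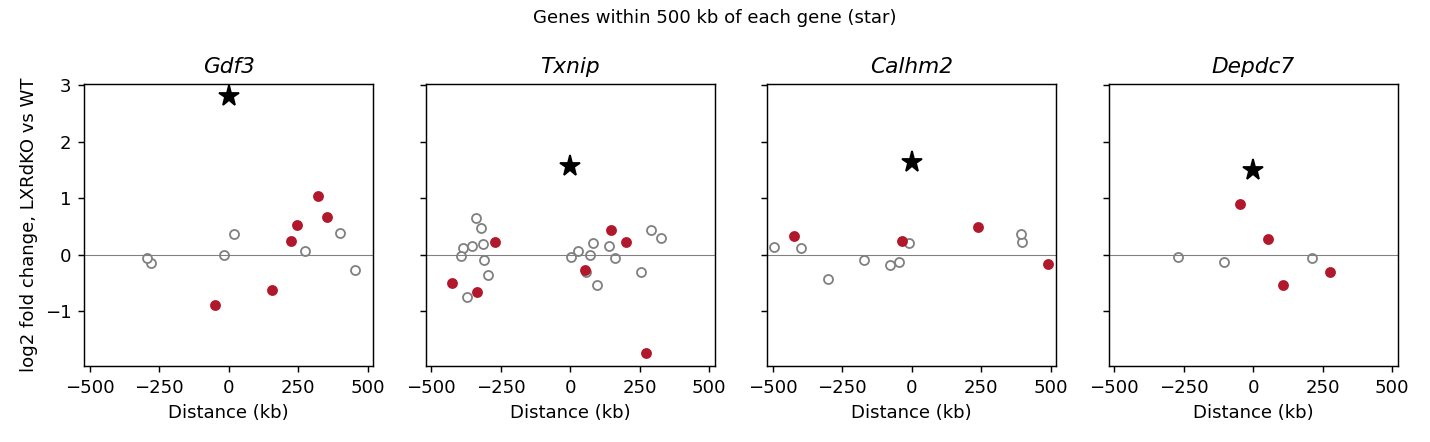
Log2 fold change of LXRdKO over WT (y axis) for tested genes within 500 kb of each of the 4 genes, against the distance between gene midpoints in kb (x axis). The star is the gene itself, filled points had an edgeR adjusted p under 0.05 and open points did not. The height of the star is the value the genes were chosen on. The neighbours reach at most 1.04 around Gdf3, 0.64 around Txnip, 0.48 around Calhm2 and 0.89 around Depdc7.

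Markers of macrophages and other cells moved between genotypes as well. Beside the counts below, 16.4% of all tested genes were called higher and 15.5% lower in LXRdKO. In Ch25hKO these shares were 19.8% and 19.5%. Lyz2 made up most of the summed level of the macrophage markers, at 12900 CPM in LXRdKO, 10600 CPM in Ch25hKO and 11100 CPM in WT. That sum was 21800 and 21600 CPM in LXRdKO, 18400 and 19000 CPM in Ch25hKO and 19600 and 18100 CPM in WT. Of 11 tested macrophage markers, edgeR called 9 higher and 0 lower in LXRdKO (0 lower too at an unadjusted p under 0.05, with DESeq2 and with limma-voom). The number higher came to 5 without either LXRdKO library. In Ch25hKO 4 were higher and 2 lower, or 1 lower without Ch25hKO replicate 1. The summed level of dendritic cell markers was 25.6 and 28.2 CPM in LXRdKO, 17.0 and 18.2 CPM in Ch25hKO and 33.1 and 32.6 CPM in WT, with 2 of 9 lower in LXRdKO and 4 of 9 lower in Ch25hKO. Most of each of these sums came from Xcr1 and Ccr7.

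Neutrophil markers summed to 39.5 and 39.2 CPM in LXRdKO, 69.0 and 72.1 CPM in Ch25hKO and 53.7 and 52.8 CPM in WT. Most of each sum came from S100a8 and Mmp8, which moved in opposite directions in LXRdKO. S100a8 was at 16.5 CPM in LXRdKO, 49.3 CPM in Ch25hKO and 35.5 CPM in WT, and Mmp8 at 19.8, 16.9 and 13.4 CPM. Of 6 tested, 1 was higher and 4 lower in LXRdKO (2 lower without either LXRdKO library, 1 with DESeq2), and 2 were higher in Ch25hKO. Stromal markers summed to 19.0 and 17.1 CPM in LXRdKO, 36.8 and 34.4 CPM in Ch25hKO and 16.7 and 15.2 CPM in WT, with 2 of 8 higher in LXRdKO, or 1 without WT replicate 2, LXRdKO replicate 1 or the Ch25hKO group and with DESeq2 or limma-voom, and 7 of 8 higher in Ch25hKO. Without WT replicate 2, 1 stromal marker was lower in LXRdKO. B, T and NK cell markers summed to at most 3.85 CPM in any library, with 1 of 3 tested lower in each knockout. No listed marker found in the table was at 0 in all 6 libraries, but the T cell gene Cd3g had 1 count in Ch25hKO replicate 2 and 0 elsewhere, and the neutrophil gene Elane 1 in WT replicate 1 and 0 elsewhere. The count of B, T and NK cell markers came to 0 in both knockouts with DESeq2, to 2 in Ch25hKO with limma-voom, and to 0 in LXRdKO without WT replicate 1 or either LXRdKO library, and in Ch25hKO to 0 without WT replicate 1 or Ch25hKO replicate 2 and to 2 without Ch25hKO replicate 1. In bulk RNA, a change in the number of cells of a type and a change in RNA per cell cannot be told apart. The part of these markers in the levels of the 4 genes was not tested.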

How the data were processed

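The deposited table held raw read counts per symbol, and each of its columns was 1 library. The submitters' processing notes name CASAVA, STAR 2.3.0, HTSeq and mm10. The annotation, counting mode and strand setting were not given in the labels or files. RNA was amplified to cDNA first, per the labels' protocols, so reads are not independent molecules.

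Groups and replicate numbers came from the sample titles. Of 23337 symbols, 5683 had no count, and edgeR's filterByExpr kept 12923 genes with 99.98% of the counts. edgeR 4.0.16 in R 4.3.3 fitted a mean per genotype to all 6 libraries with TMM scaling and robust quasi-likelihood dispersions (3 residual and 14.4 prior degrees of freedom), and was tested on simulated data. Genes were called at a Benjamini-Hochberg adjusted p under 0.05 over all tested genes. CPM used TMM-scaled library sizes, and profiles a prior count of 2. Coordinates and exon lengths came from GENCODE M21 (GRCm38, the same build as mm10), which placed 12761 tested genes, and promoters from RefSeq (GRCm38.p6), which matched 3 of the 4 genes.

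The 4 genes and all lists were chosen with earlier results of these data known. In a list, the genes named are the 4 of lowest p in either comparison, and family members of the 4 genes. Besides these, Acvr1c, Arrdc1, Arrdc2, Prex1, Pparg, Tdgf1, Apoe, Pltp, Npc2 and Lyz2 were named after their values were seen. One gene that this rule names is not reported here. For neighbours, up to 3 of lowest p per gene were named. Genes near in profile had a mean of at least 5 CPM. Alternatives were RLE or upper-quartile scaling, DESeq2 1.42.0, limma-voom (limma 3.58.1), no low-count filter, at least 5 CPM in 2 libraries, fits to only the 2 genotypes compared, a replicate block, and omission of each library. A block with WT numbers crossed was added after seeing the data. A group left with 1 library was assumed to vary like the others, which the libraries did not bear out for WT. Replicates were farther apart in WT, where chi-square over its degrees of freedom was 11.7, than in Ch25hKO (4.95) or LXRdKO (4.13). The fit pooled the spread of all genotypes for each gene. Errors and p-values against WT may therefore be too small, most of all in fits with 1 WT library.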

Additional observations from a re-analysis of the deposited data

How the results depend on the processing

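In Ch25hKO against WT, Gdf3 and Txnip kept their direction and call under all 15 alternatives, with log2 fold changes from 0.86 to 1.04 and from 0.30 to 0.44. Calhm2 lost its call with DESeq2 (0.42, adjusted p = 0.0675), and leaving out single libraries gave 0.37 to 0.48. Depdc7 passed with RLE scaling (-0.32, edgeR adjusted p = 0.0473) and with a filter of 5 CPM (-0.33, edgeR adjusted p = 0.0384), and leaving out single libraries gave -0.44 to -0.18. Over the same alternatives, the log2 fold change of LXRdKO over WT ran from 2.70 to 2.89 for Gdf3, 1.48 to 1.62 for Txnip, 1.53 to 1.75 for Calhm2 and 1.37 to 1.62 for Depdc7. Leaving out single libraries gave 1292 to 2097 genes called higher and 1198 to 2232 called lower in LXRdKO, and 1501 to 2478 called higher in Ch25hKO. With the replicate block, 2372 and 2393 genes were called higher and lower in Ch25hKO and 1913 and 1843 in LXRdKO, and no call of the 4 genes changed (Depdc7, adjusted p = 0.0722). Same-numbered libraries were not paired by the labels, and their deviations correlated at -0.105 between Ch25hKO and WT, -0.0127 between LXRdKO and WT and 0.0245 between the knockouts. A block with crossed WT numbers called 2730 and 2675 genes in Ch25hKO and 2335 and 2193 in LXRdKO. DESeq2 called 1498 genes higher and 1426 lower in LXRdKO, against 2116 and 1999 in the main fit. In Ch25hKO it called 1741 and 2097, against 2557 and 2516. A filter of 5 CPM, under which fewer genes are tested, moved 15 of the counts over gene lists by more than 1.5 times. DESeq2 moved 10 and the crossed block moved 2. The counts behind Gdf3 and Calhm2 in WT are low, which limits the precision of their folds. The cause of these shifts was not tested.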
